A study of Sus scrofa with 6 samples.

Results

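Genes that receive or carry signals of adipokines other than *RBP4*, together with the peroxisome proliferator-activated receptors (PPARs) and the liver X receptor (LXR) alpha, were described in porcine granulosa cells (GCs) with and without *RBP4* overexpression. The genes were chosen by name, as the receptors and ligands of other adipokines, the PPARs and LXR. Of 10 listed genes, 8 were named in the deposited table of 17950 Ensembl pig genes. They were *PPARA* (ENSSSCG00000000006), *PPARD* (ENSSSCG00000001539), *PPARG* (ENSSSCG00000011579), *NR1H3* (ENSSSCG00000013241), *LEPR* (ENSSSCG00000025188), *ADIPOR1* (ENSSSCG00000010931), *ADIPOR2* (ENSSSCG00000000757) and *NAMPT* (ENSSSCG00000015435). The genes of chemerin (*RARRES2*) and of its receptor (*CMKLR1*) were not named there and were not analysed here.

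The cells came from follicles of pre-pubertal Landrace gilts and were cultured from follicular fluid in medium with serum. In the pLVX-*RBP4* group, 3 libraries were made from GCs infected for 72 h with a lentivirus carrying porcine *RBP4* and, after an IRES, the green fluorescent protein ZsGreen. In the CTRL group, 3 libraries were made after 72 h with the virus carrying ZsGreen alone, so both groups share infection and ZsGreen. The methods describe no selection of ZsGreen-positive cells. How many gilts gave cells to each culture is not given in the sources used here.

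The table holds 1 FPKM value per gene and group, that is, fragments scaled to transcript length and to the number of mapped fragments. No values per library were used, so no spread between replicates and no test can be given here, and each number is the authors' value for the group. The study's own test between the groups was not used for the calls below. A difference between the groups is pLVX-*RBP4* minus CTRL on the log2(FPKM + 1) scale, which understates the change of low genes, whereas a ratio is taken without the added 1. The introduced gene checked the labels, with *RBP4* at 1.10 FPKM in CTRL and 92.3 FPKM in pLVX-*RBP4*.

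Adipokines are hormones released mainly by fat. Leptin acts through its receptor *LEPR*, a cytokine receptor that activates JAK2 and STAT3. Adiponectin acts through *ADIPOR1* and *ADIPOR2*, membrane proteins of the PAQR family that are linked to AMP-activated protein kinase (AMPK) and to PPARalpha. The PPARs and LXRs are nuclear receptors for fatty acids and oxysterols, respectively. Both bind DNA as heterodimers with retinoid X receptors, and in the follicle they have been studied for lipid handling and steroid production. Such receptors answer mainly to ligand, so their transcript level is not a measure of their activity.

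*NR1H3*, the gene of LXRalpha, had the highest level of the 8 genes. It stood at 35.3 FPKM in CTRL and 35.8 FPKM in pLVX-*RBP4*. *PPARG*, a regulator of lipid storage, had 30.0 and 30.4 FPKM. *NAMPT*, which makes nicotinamide mononucleotide in the NAD salvage route and is also secreted as visfatin, had 27.9 and 29.6 FPKM. These 3 genes and *LEPR* had the higher value in the pLVX-*RBP4* group, by 1.39%, 1.09% and 5.97% for the first 3.

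The other 4 genes had the lower value in the pLVX-*RBP4* group. *PPARD*, the most widely expressed PPAR in mammalian tissues, had 27.7 FPKM in CTRL and 25.8 FPKM in pLVX-*RBP4*, a ratio of 0.933. *ADIPOR2* had 25.6 and 23.1 FPKM, a ratio of 0.902. *ADIPOR1* had 11.3 and 11.1 FPKM, a ratio of 0.980. *PPARA*, which directs fatty acid oxidation in liver and muscle, was the only one of the 4 with a low level, at 1.83 and 1.37 FPKM and a ratio of 0.747.

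**Figure D1:**
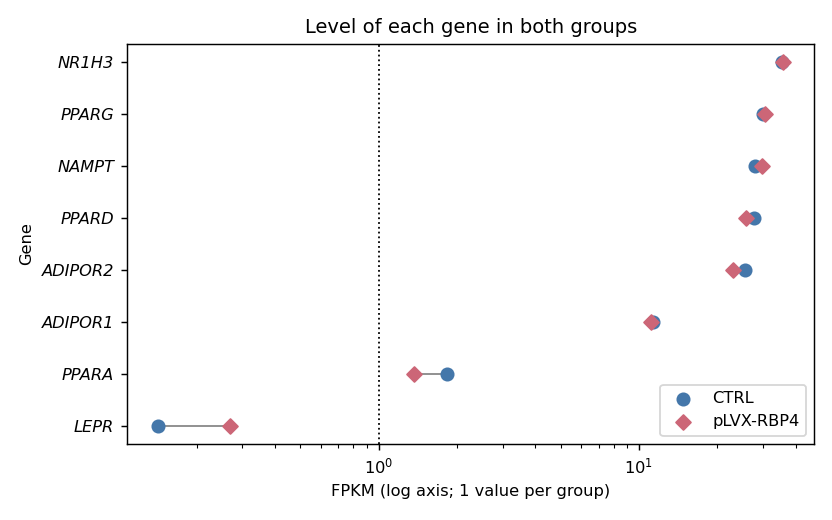
FPKM (horizontal log axis) of the 8 genes in CTRL (circles) and pLVX-*RBP4* (diamonds), 1 group value each, ordered by the CTRL level; the dotted line marks 1 FPKM. The markers of 6 genes nearly coincide between 11.1 and 35.8 FPKM, whereas *PPARA* and *LEPR* lie lower and their markers stand apart.

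*LEPR* was the lowest of the 8 genes, with 0.142 FPKM in CTRL and 0.269 FPKM in pLVX-*RBP4*. In CTRL, 18.3% of all genes in the table had a lower value. The ratio of 1.89 is the largest of the 8, but it rests on values well under 1 FPKM, for which the number of fragments is not known. The study reports more mapped reads in each pLVX-*RBP4* library than in any CTRL library, and the part of sequencing depth in this ratio was not tested. In 865 genes detected in each group at a mean under 0.1 FPKM, the ratio of pLVX-*RBP4* to CTRL lay most often between 0.70 and 0.75 (77 genes), against 22 genes between 0.95 and 1.05. The mean of *LEPR*, 0.206 FPKM, lies above that limit. For the 1592 genes of the whole table with a mean within a factor of 2 of that of *LEPR*, the median size of the log2(FPKM + 1) difference was 0.12, against 0.15 for *LEPR*. *LEPROT*, which encodes a small protein that limits leptin receptor at the cell surface, had 147 and 174 FPKM. In human and mouse it shares its promoter with *LEPR*. In the RefSeq annotation of Sscrofa11.1, a later build than the one used for the table, both genes lie on the same chromosome. Their spans do not overlap and lie 78489 bp apart, and a shared promoter in pig was not tested.

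The order of the 8 levels was the same in both groups. *NR1H3* came first, followed by *PPARG*, *NAMPT*, *PPARD*, *ADIPOR2*, *ADIPOR1*, *PPARA* and *LEPR*. The values of *PPARG*, *NAMPT*, *PPARD* and *ADIPOR2* lay within 25.6 to 30.0 FPKM in CTRL, and whether these neighbours differ beyond replicate spread is not known. As a ratio of levels, the gap between *ADIPOR1* and *PPARA* was wider than any among the first 6. Within the whole table, *NR1H3* exceeded 84.4% of the genes in CTRL and *PPARA* 36.4%.

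The 3 PPAR genes were unequal in level. In CTRL, *PPARG* made up 50.4% of their summed FPKM of 59.6, *PPARD* 46.5% and *PPARA* 3.08%. In pLVX-*RBP4* the sum was 57.6 FPKM, with shares of 52.7%, 44.9% and 2.38%. *PPARG* was therefore 16.4-fold above *PPARA* in CTRL and 22.2-fold above it in pLVX-*RBP4*, on the FPKM scale. The adiponectin receptors were closer to each other, with *ADIPOR2* 2.26-fold above *ADIPOR1* in CTRL and 2.08-fold in pLVX-*RBP4*.

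For counts, genes with a mean of at least 1 FPKM over both groups were kept, which left 12382 genes and 7 of the 8 described here. *LEPR* was below that limit. A gene was called when its FPKM + 1 in pLVX-*RBP4* was at least 25% above or 20% below that in CTRL, that is, when its difference reached 0.322 on the log2(FPKM + 1) scale. None of the 7 genes was called in either direction (0 of 7), whereas 7.11% of all 12382 genes were called higher and 5.31% lower in pLVX-*RBP4*. At these shares a count of 0 among 7 genes does not set them apart from the rest. Of all calls, 57.2% were upward as deposited and 78.5% after both groups were rescaled to a common sum, with no call among the 7 genes under either.

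The differences of the 7 genes ran from -0.26 for *PPARA* to 0.081 for *NAMPT*, with a median of -0.027. The median over all 12382 genes was 0.0014, the median size without sign was 0.13, and 50.2% of them were higher in pLVX-*RBP4*. In 5 of the 7 genes the difference was within 0.1 of 0, as it was in 39.4% of all genes. *ADIPOR2* (-0.14) and *PPARA* (-0.26) were the exceptions. For the 2070 of these genes whose mean was within a factor of 2 of that of *PPARA*, the median size was 0.16.

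**Figure D2:**
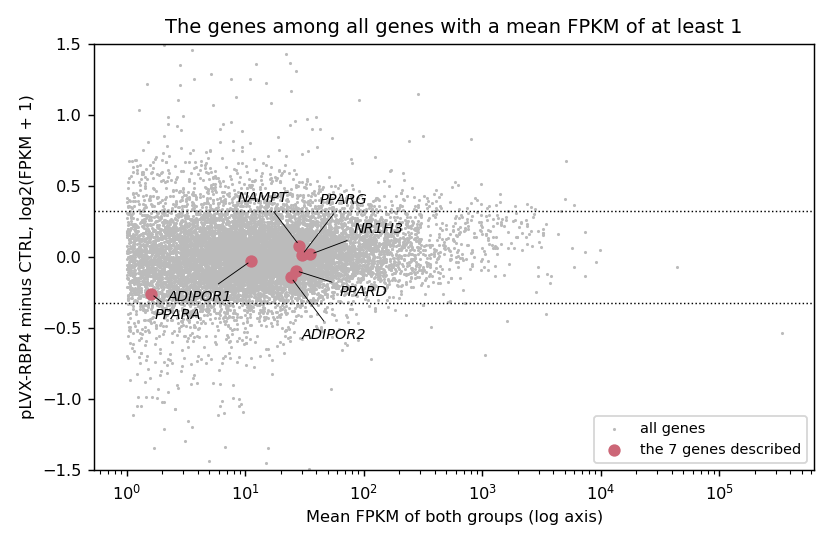
Difference on the log2(FPKM + 1) scale (vertical axis) against mean FPKM (horizontal log axis) for all genes with a mean of at least 1 FPKM (grey) and 7 of the genes described (red). Dotted lines mark the call limits of 0.322, all 7 genes lie between them, and 71 genes lie beyond the vertical range of 1.5.

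The direction of these small differences depended in part on scaling. *ADIPOR1* was -0.027 as deposited and 0.046 after rescaling to a common sum. That scaling raises every FPKM ratio of pLVX-*RBP4* to CTRL by the same factor, and the median difference over all genes became 0.072. Counts of higher and lower genes given below with a common sum include that shift. No other gene of the 8 changed sign under another scaling, pseudocount or filter. *PPARA* stayed the lowest, from -0.42 to -0.20. It passed the call limit when 0.1 or 0.01 in place of 1 was added to the FPKM values.

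**Figure D3:**
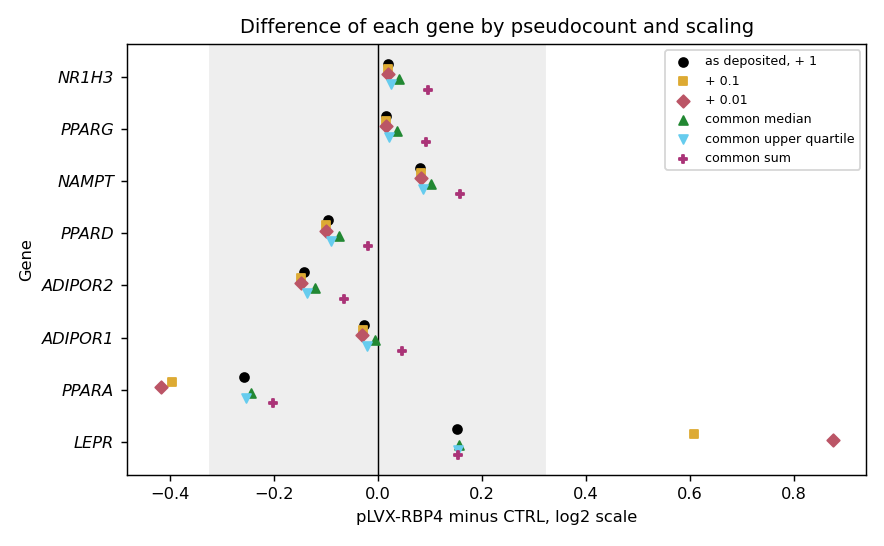
Difference of each gene (horizontal axis, log2 scale) with 1, 0.1 or 0.01 added to FPKM and after scaling to a common median, upper quartile or sum; the grey band lies within the call limits. *LEPR* moves from 0.15 to 0.87 with the pseudocount, *PPARA* leaves the band with the smaller pseudocounts, and the other 6 genes stay inside.

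The ligands and receptors of other adipokines were read from a list of 26 ligand genes, which includes *RBP4* and *NAMPT*, and one of 16 receptor genes, which includes *LEPR*, *ADIPOR1* and *ADIPOR2*. Calls in these and the following lists stand beside shares of 7.11% called higher and 5.31% called lower over all 12382 genes as deposited. No list was tested against these shares. By symbol, 14 ligands and 12 receptors were found. Leptin (*LEP*) and adiponectin (*ADIPOQ*) were not found by symbol. Of the 12 ligands with a mean of at least 1 FPKM, 7 were higher and 5 lower in pLVX-*RBP4*, with a median of 0.068, or 10 and 2 with a common sum. Besides *RBP4*, the lipocalin *LCN2* alone was called, at 69.8 and 36.2 FPKM (-0.93). The study names *LCN2* among its most downregulated genes and reports a decrease by RT-qPCR as well. With a common sum there were 4 calls, since *C1QTNF7* and *SFRP5* were called higher as well. *ANGPTL4*, an inhibitor of lipoprotein lipase and a known PPAR target, had the highest level of the listed ligands, with 370 FPKM in CTRL and 352 FPKM in pLVX-*RBP4*.

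Among the 9 receptors with a mean of at least 1 FPKM, 4 were higher and 5 lower, with a median of -0.027, or 6 and 3 with a common sum. Both calls as deposited were downward. The insulin receptor *INSR* had 8.47 FPKM in CTRL and 5.80 FPKM in pLVX-*RBP4* (-0.48), and *CCRL2*, which binds chemerin without signalling, had 2.52 and 1.62 FPKM (-0.43). A further chemerin receptor, *CMKLR2* (formerly *GPR1*), had 1.19 and 1.69 FPKM (0.30) and was called higher with a common sum (0.33). *STRA6*, the membrane receptor of RBP4, had 22.9 and 26.0 FPKM (0.18), and *CAP1*, proposed as a receptor of resistin, was the most abundant of the list with 297 and 315 FPKM.

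Genes acting downstream of *LEPR* were present although *LEPR* itself was near the lower end of the values. Of 24 listed genes, 18 were found and 17 had a mean of at least 1 FPKM. In pLVX-*RBP4*, 9 were higher and 8 lower, with a median of 0.0083. *PTPN1*, the phosphatase that removes phosphate from JAK2, was the single call, with 25.6 FPKM in CTRL and 19.3 FPKM in pLVX-*RBP4* (-0.39), and it was not called after rescaling to a common sum. *LEPROT* had the largest positive difference (0.23).

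The list for adiponectin receptors and AMPK held 33 genes, of which 22 were found and 21 had a mean of at least 1 FPKM. None was called, 13 were higher and 8 lower, and the median was 0.017. With a common sum, 16 were higher. *ASAH1*, an acid ceramidase, had the largest positive difference (70.4 and 84.5 FPKM, 0.26) and was called with a common sum (0.34). *ACACA*, the acetyl-CoA carboxylase that AMPK inhibits, had the largest negative difference (20.0 and 16.9 FPKM, -0.23). *MMD*, a further gene of the PAQR family, was the most abundant, at 259 and 230 FPKM.

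*NAMPT* was set beside 26 other genes of NAD synthesis and use. Of the 15 found, 13 had a mean of at least 1 FPKM, with 8 higher, 5 lower and a median of 0.10. *NMNAT2*, an enzyme best known from neurons that acts on the product of *NAMPT*, had 16.1 FPKM in CTRL and 12.9 FPKM in pLVX-*RBP4* (-0.30). The 3 calls among these 13 genes, 2 higher and 1 lower, were made on genes with low levels. Over all genes 7.11% were called higher and 5.31% lower, and whether the list departs from these shares was not tested. *NMRK1* had 1.51 and 2.29 FPKM, *NUDT12* 2.60 and 3.73 FPKM, and the NAD-consuming *CD38* 1.74 and 1.17 FPKM. The call of *CD38* was lost after rescaling to a common sum. *SIRT1*, a deacetylase that uses NAD, had 4.59 and 5.47 FPKM (0.21), and the transhydrogenase *NNT* was the most abundant of the list, at 31.8 and 35.0 FPKM.

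Partners and coregulators of PPARs and LXRs had mostly the lower value in pLVX-*RBP4*, whereas 50.2% of all 12382 genes had the higher value as deposited. Of 24 listed genes 21 were found and 19 had a mean of at least 1 FPKM, of which 14 were lower and 5 higher, with a median of -0.12. After rescaling to a common sum 12 were lower, with a median of -0.050. None was called under any scaling. *CREBBP*, a histone acetyltransferase that coactivates nuclear receptors, had the largest negative difference (11.7 and 9.48 FPKM, -0.28), and *CITED2* was the most abundant, with 260 and 285 FPKM. Of the retinoid X receptors, *RXRB* had 19.2 and 19.8 FPKM, *RXRG* was listed at 0 in CTRL with 0.0186 FPKM in pLVX-*RBP4*, and *RXRA* was not found by symbol.

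The products of PPAR action were read from 56 target genes, of which 38 were found and 31 had a mean of at least 1 FPKM. In pLVX-*RBP4*, 18 were higher and 13 lower, with a median of 0.061 and no call, against 25 higher after rescaling to a common sum. *ACADM*, the medium-chain acyl-CoA dehydrogenase of fatty acid oxidation, had the largest positive difference, 32.3 FPKM in CTRL and 40.6 FPKM in pLVX-*RBP4* (0.32), just under the call limit as deposited and past it under each of the 3 other scalings. Among genes with a mean of at least 5 FPKM, the mitochondrial carrier *UCP2* had the largest negative difference (51.4 and 42.8 FPKM, -0.26). *ACSL4*, which activates long-chain fatty acids, was the most abundant, at 969 and 1011 FPKM.

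*NR1H2*, the gene of LXRbeta, was 1.32-fold above *NR1H3* in CTRL and 1.33-fold in pLVX-*RBP4*, with 46.7 and 47.6 FPKM. In the list of LXR family and target genes, 18 of 28 were found and 16 had a mean of at least 1 FPKM, with 7 higher, 9 lower and a median of -0.032. With a common sum, 11 were higher. *APOE*, the apolipoprotein of cholesterol export, was the single call, with 108 FPKM in CTRL and 156 FPKM in pLVX-*RBP4* (0.53). *TGM2* was the most abundant, with 1588 and 1453 FPKM.

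**Figure D4:**
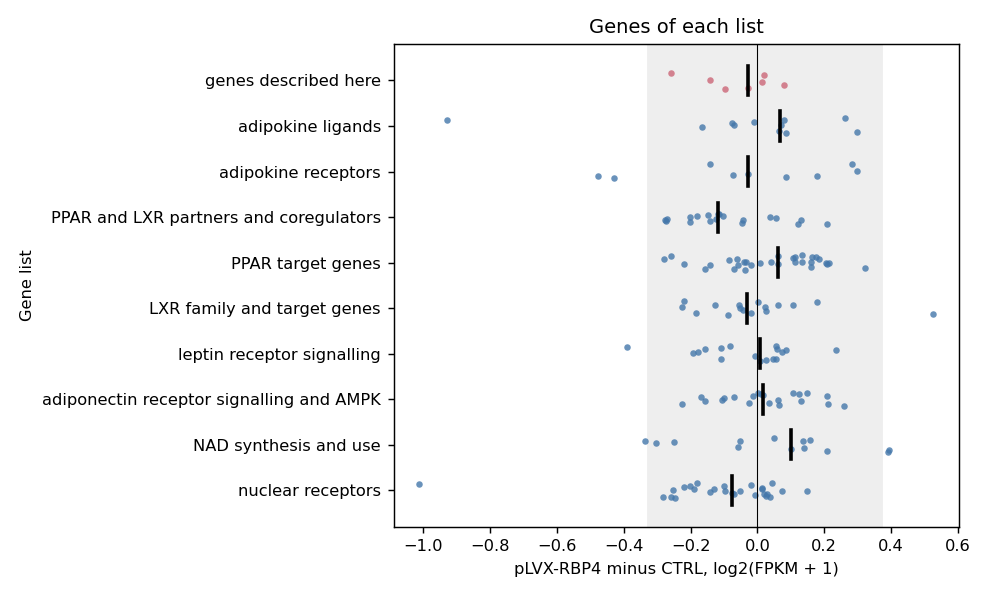
Difference on the log2(FPKM + 1) scale (horizontal axis) for each gene with a mean of at least 1 FPKM in the genes described (red) and in 9 lists (blue), without *RBP4*; black bars are medians (*RBP4* included) and the grey band holds the middle 90% of all genes, from -0.33 to 0.37. The red points all lie in the band, and the medians run from -0.12 for coregulators to 0.10 for NAD genes.

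A place among nuclear receptors was given to each PPAR and LXR gene by level. Of 47 receptor genes listed, these included, 38 were found. In CTRL, *NR1H3* ranked 4th, *PPARG* 6th, *PPARD* 7th and *PPARA* 24th, and in pLVX-*RBP4* they ranked 4th, 5th, 7th and 25th. *RARA*, a retinoic acid receptor, was first in both, with 71.7 and 63.1 FPKM. Of the 27 receptors with a mean of at least 1 FPKM, 18 were lower and 9 higher in pLVX-*RBP4*, with a median of -0.075. With a common sum, 14 were lower. The single call was the oestrogen receptor *ESR1* (8.90 and 3.91 FPKM, -1.01). *RARB* had the largest positive difference (6.34 and 7.13 FPKM, 0.15).

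**Figure D5:**
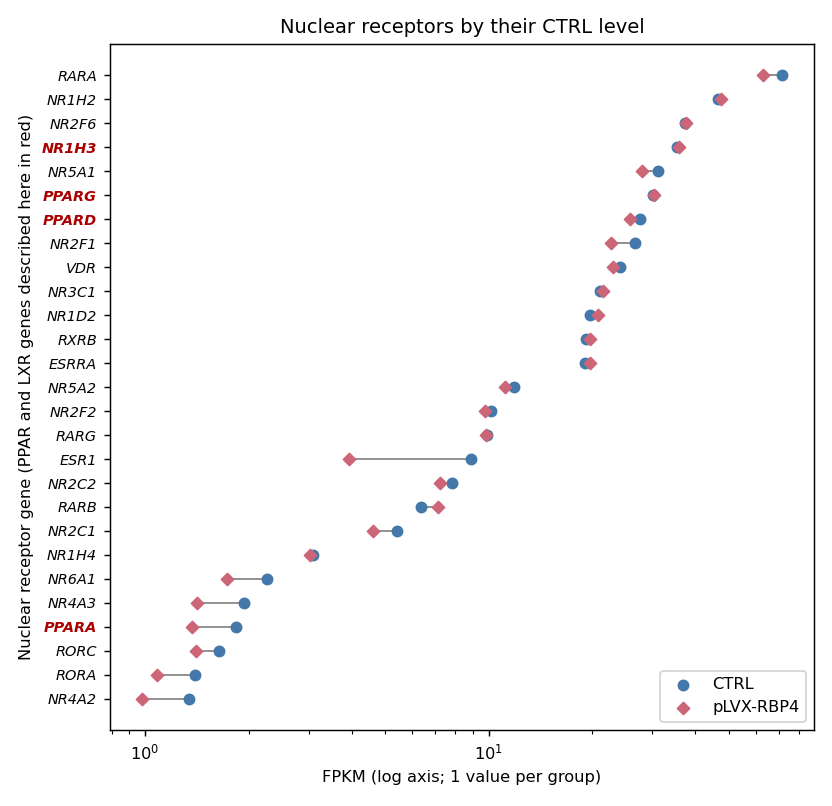
FPKM (horizontal log axis) in CTRL (circles) and pLVX-*RBP4* (diamonds) of the 27 nuclear receptor genes with a mean of at least 1 FPKM, ordered by the CTRL level, with *NR1H3*, *PPARG*, *PPARD* and *PPARA* in red. The first 3 of these lie between 25.8 and 35.8 FPKM, *PPARA* lies near the end, and *ESR1* has the widest gap.

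The GC label was read against marker genes. Of 21 GC markers 12 were found, with a summed level of 1948 FPKM in CTRL and 2091 FPKM in pLVX-*RBP4*. That sum was led by *GJA1* (675 and 814 FPKM, 0.27) and *CYP11A1* (673 and 669 FPKM). Of the 11 with a mean of at least 1 FPKM, 4 were higher and 7 lower in pLVX-*RBP4*, with a median of -0.035 and no call. With a common sum, 7 were higher and 4 lower, and *GJA1* and *FST* were called. *FSHR* had 9.99 and 8.47 FPKM. Lower levels were seen for *AMHR2*, with a mean of 1.24 FPKM, and *ESR2*, with 0.0331 and 0.0718 FPKM. *CYP19A1*, *AMH* and *FOXL2* were not found by symbol. Some genes of the list for theca and stroma were abundant too. Of 14 such markers 11 were found, with a summed level of 3252 FPKM in CTRL and 3514 FPKM in pLVX-*RBP4*. That sum was led by *TAGLN* (1809 and 1891 FPKM), *ACTA2* (644 and 688 FPKM) and *COL3A1* (525 and 611 FPKM). The theca marker *INSL3* was listed at 0 in CTRL with 0.292 FPKM in pLVX-*RBP4*. *LUM* (6.82 and 9.10 FPKM, 0.37) was called in this list, and *PDGFRA* (12.6 and 11.2 FPKM, -0.16) had the largest negative difference among those with a mean of at least 5 FPKM. The 8 immune markers found of 14 summed to 57.8 and 66.3 FPKM, led by *CD14* (42.9 and 48.9 FPKM), with the leukocyte gene *PTPRC* at 0.229 and 0.166 FPKM. The 5 immune markers with a mean of at least 1 FPKM were all higher in pLVX-*RBP4* as deposited (median 0.18) and under the other scalings, and none was called. *TYROBP* had the largest positive difference of those with a mean of at least 5 FPKM (7.08 and 8.41 FPKM, 0.22). The 5 endothelial markers found of 10 summed to 25.0 and 24.2 FPKM, led by *PECAM1*. Of 12 adipocyte markers 7 were found, which summed to 57.3 and 53.4 FPKM, with *PLIN1* at 0.776 and 0.262 FPKM and *CIDEC* at 0.128 and 0.0603 FPKM. The lipase gene *PNPLA2*, which is active in many tissues, was the most abundant of them (51.3 and 48.4 FPKM, -0.080). Each of these sums is led by a few genes and does not measure the share of a cell type. In bulk RNA, fewer cells of a type and less RNA per cell cannot be told apart, and the part of these cell types in the values above was not tested.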

How the data were processed

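According to the study's methods, total RNA of 6 cultures was sequenced as paired-end reads, and clean reads were aligned with TopHat2 to Sscrofa10.2. The authors computed FPKM, compared the groups with Cuffdiff of Cufflinks, and deposited 1 FPKM value per gene and group. Versions and the annotation release are not given in the sources used here. Depth per library was not analysed here.

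Ensembl identifiers were matched to a table of gene names, which named 10489 of 17950 genes. From the FPKM values, log2(FPKM + 1) was computed, and pLVX-*RBP4* minus CTRL was taken as the difference. Genes with a mean of at least 1 FPKM were counted, and a gene was called at a difference of 0.322. With 1 value per group, no p-value or error was computed. The calculation was checked on simulated data without noise, in which chosen genes were changed by fixed factors. That check covers the arithmetic only and does not measure how reliable a call is.

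The genes described and the 14 other lists were chosen with earlier results of these data known. Besides the genes described, the text names from each list the gene with the highest level and those with the largest positive and negative difference among genes with a mean of at least 5 FPKM, the binding partners of the genes described, and *RBP4*. Other genes, such as *CD38*, *NMRK1*, *NUDT12*, *C1QTNF7*, *SFRP5*, *PTPRC*, *PLIN1* and *CIDEC*, were named as calls of a list or as markers, after their values were seen. Some genes of these subjects are not reported here.

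Alternatives were pseudocounts of 0.1 and 0.01, no filter or a mean of at least 5 FPKM, scaling to a common median, upper quartile or sum (TPM), a limit of 1.5-fold, and the mean of a list. A value was taken as moved at 0.1 on the log2 scale, and a count at 1.5 times. Python 3.11.15, numpy 2.4.6, pandas 2.3.3 and matplotlib 3.10.9 were used. No sequence and no coordinates of Sscrofa10.2 were used here.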

Additional observations from a re-analysis of the deposited data

How the results depend on the processing

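No paired analysis was possible because the table holds 1 value per group, and for the same reason no replicate could be left out. The count of calls among the genes described, 0 of 7, became 1 with a pseudocount of 0.1 and 1 with 0.01, in both cases *PPARA* (-0.40 and -0.42), since a smaller added number shrinks low genes less. It was 0 under every other alternative listed in the processing section. Over all genes, 880 were called higher and 658 lower. A common sum gave 1469 and 402, since it raises every FPKM ratio of pLVX-*RBP4* to CTRL by the same factor (1 gene, ENSSSCG00000025162, holds 35.4% of the sum in CTRL and 25.8% in pLVX-*RBP4*). A limit of 1.5-fold gave 184 and 159. The count of lower calls was 339 with a mean of at least 5 FPKM and 1023 with a pseudocount of 0.01. The mean of the adipokine ligands, 0.42 against a median of 0.068, is set by *RBP4*. No other list median moved by 0.1 under these alternatives. *LEPR* (0.15) became 0.61 and 0.87 with pseudocounts of 0.1 and 0.01, and *ADIPOR1* changed sign with a common sum. Without values per library, differences such as those of *ADIPOR2* and *PPARA* cannot be set against replicate error.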

Other observations

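The PPAR and LXR target lists hold genes of opposite branches of fatty acid metabolism, and both groups below were formed after the values were seen. Of 15 genes of fatty acid oxidation, 14 had a mean of at least 1 FPKM, and 10 of these were higher in pLVX-*RBP4*, with a median of 0.12. The values ran from -0.061 to 0.32, with *HADHB* at 43.3 FPKM in CTRL and 50.2 FPKM in pLVX-*RBP4* and *CPT1A*, the carnitine transferase of the outer mitochondrial membrane, at 42.3 and 40.6 FPKM. After rescaling to a common sum, 14 of the 14 were higher.

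All 6 genes grouped under fatty acid synthesis and desaturation (*SCD*, *FADS1*, *FADS2*, *FASN*, *ACACA* and *ME1*) were lower in pLVX-*RBP4* as deposited, with a median of -0.15. With a common sum, 5 of the 6 were lower (median -0.073). Of all 12382 genes, 50.2% were higher as deposited. *ELOVL5*, an elongase in the LXR target list, was left out of this group and was higher (63.3 and 66.1 FPKM, 0.063). *SCD*, a desaturase, had 29.9 and 25.5 FPKM. None of the 20 genes counted in these 2 groups was called as deposited, and whether the groups differ from each other beyond replicate spread was not tested.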
